A study of Mus musculus with 6 samples.

Results

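The Six-family, Eya and Dach genes encode a network of transcription factors and cofactors, first described in the development of the fly eye. Of the 19932 genes measured on these arrays, 9 were taken by name: Six2, Six4, Six5, Eya1, Eya2, Eya3, Eya4, Dach1 and Dach2. All 9 had a probe set. RNA was measured on whole-transcript arrays in cartilage-forming cells (chondrocytes) of untreated mice, wild type and of the outbred ICR strain. Nasal septum chondrocytes came from embryonic day 17.5 (3 arrays, called nasal below) and rib chondrocytes from postnatal day 1 (3 arrays, called rib). The arrays belong to a wider study of how the transcription factor Sox9 regulates chondrocytes. The groups differ both in body site and in age, and effects of site and age cannot be told apart. In such bulk samples, fewer cells of a type and less RNA per cell cannot be told apart either. The labels call the arrays of a group biological replicates but do not say how many animals gave each one.

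Six-family proteins bind DNA through a homeodomain and an adjoining Six-type domain. Eya proteins do not bind DNA themselves. They are recruited through the Six-type domain, bring a transactivation domain to the target gene and carry a phosphatase activity. Dach proteins, relatives of the Ski corepressors, can turn the same complexes towards repression. In mammals the network is known for its part in the kidney, the inner ear, skeletal muscle and the skeleton of the head, where Six2 is active in the mesenchyme of the face and in the cap cells of the kidney.

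The values are intensities on a linear scale, given per array, and the differences are log2 of nasal minus rib with the standard error (SE) from limma. A gene was called where its Benjamini-Hochberg adjusted p over all genes was under 0.05. By that rule 28.5% of all genes were called, 13.8% as higher in nasal and 14.7% as higher in rib. All 9 members were called, 5 as higher in nasal (Six2, Eya1, Eya2, Eya4 and Dach2) and 4 as lower in nasal (Six4, Six5, Eya3 and Dach1). Each of the 3 families thus held genes that moved in opposite directions, though in the Eya and Dach families this rests on Eya3 and Dach2, whose calls were the least secure. The 3 nasal values lay outside the range of the 3 rib values for all 9, as they did for 45.7% of all genes. The median difference of the 9 was 0.53, which is the value of Dach2, against 0.11 over all genes. Set against that general shift, Eya3 was at -0.41 and Dach2 at 0.42. Calls for 7 members held under all alternative settings that tested them, whereas those of Eya3 and Dach2 did not.

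**Figure D1:**
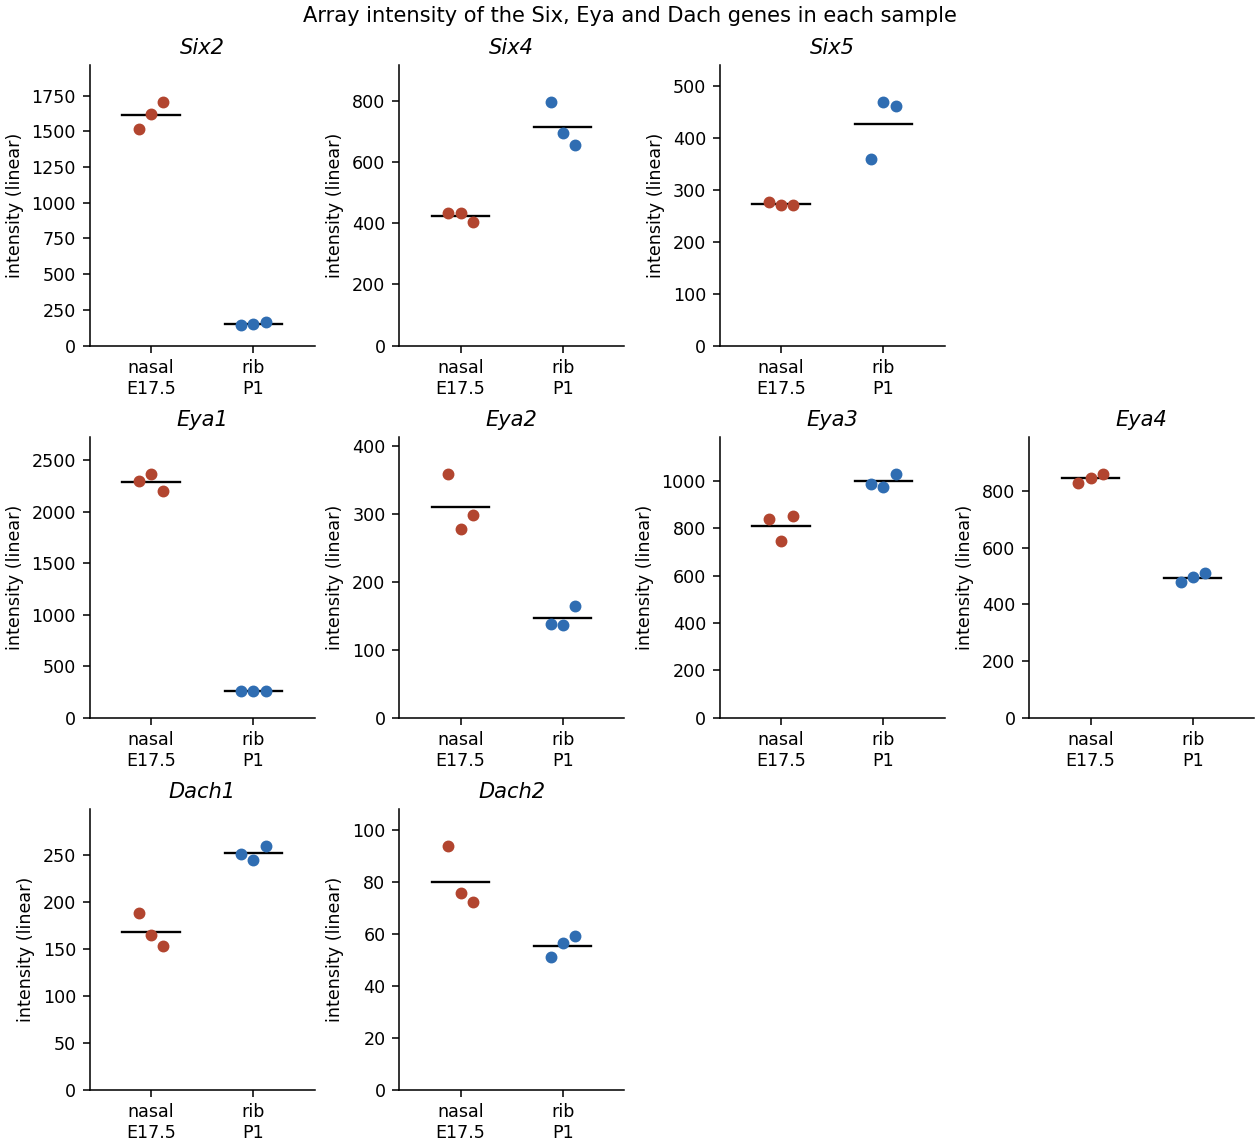
Array intensity (linear axis from 0) of each gene, with Six-family genes in the top row, Eya genes in the middle row and Dach genes in the bottom row; each point is 1 array, with nasal left and rib right, and the black line is the geometric mean of 3 arrays. Six2 and Eya1 averaged 1615 and 2287 in nasal and 151 and 259 in rib, and the groups do not overlap for any of the 9 genes.

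Six2 had the largest difference of the members. Its intensities were 1519, 1624 and 1707 in nasal, against 141, 148 and 166 in rib. Every nasal array was thus far above every rib array, by 10.7-fold between the geometric means (log2 3.42, SE 0.10, adjusted p = 2.33e-05). In the order of all genes higher in nasal, Six2 stood at place 4. In rib the mean of 151 was below the intensity of the median gene, 231. How far that signal lies above background was not tested.

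The stretch before the Six2 start is shown because Six2 moved most and because Hoxa2 and the Meis genes, described below, moved the other way. It is the 250 bases upstream of the start that RefSeq annotates, at chr17:85688255-85688504 of GRCm38.p6 on the minus strand, and 64.8% of its bases are G or C. Capitals mark matches to TGACAG, the core sequence bound by Meis proteins, read on both strands.
Six2: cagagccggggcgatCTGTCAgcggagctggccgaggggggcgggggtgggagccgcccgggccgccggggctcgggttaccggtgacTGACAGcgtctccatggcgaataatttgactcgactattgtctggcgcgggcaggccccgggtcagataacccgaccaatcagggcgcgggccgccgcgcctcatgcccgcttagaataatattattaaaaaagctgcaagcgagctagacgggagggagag
The matches begin 235 and 162 bases before the start, the first of them on the opposite strand. Among 32851 mouse promoter windows of the same length, 15.9% held at least 1 match and 1.64% held at least 2. A match describes the letters only and is not evidence that a protein binds there.

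Six4 and Six5, which form a separate subgroup of the family and are known from muscle, were lower in nasal. Six4 had 435, 432 and 404 in nasal, against 798, 695 and 656 in rib. The nasal arrays were close together and all below the rib arrays (log2 -0.75, SE 0.10, adjusted p = 0.00243). For Six5 the intensities were 277, 272 and 271 in nasal, against 360, 470 and 462 in rib (log2 -0.65, SE 0.12, adjusted p = 0.00844). The spread of Six5 lay almost wholly in rib, where replicate 1 stood below the other arrays. Without it the Six5 difference was -0.77.

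Rib replicate 1 also had a low summed intensity of genes of perichondrium and fibroblasts, the connective tissue around cartilage. The sum of 10 such markers was 17200 in that array, against 22885 in rib replicate 2 and 23117 in rib replicate 3. The gap lay mostly in Postn (2303, against 5239 and 5226) and Col1a1 (2079, against 3862 and 4442). Lum went the other way (4849, against 4341 and 4015), and Pdgfra lay between the other rib arrays. The part of such cells in the Six5 values was not tested beyond leaving the array out.

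Six-family proteins are known to bind the MEF3 site, TCAGGTTTC, described in the promoter of the muscle regulator Myog. Within 250 bases upstream of an annotated start, 0.387% of the 32851 windows held it on either strand. Among the members with a promoter entry, Six4 held one, and it is printed beside the Myog site with the MEF3 letters in capitals.
Six4: atctggccgaTCAGGTTTCccccaggccac
Myog: tagaggggggcTCAGGTTTCtgtggcgttg
The Six4 stretch is at chr12:73113326-73113355 of GRCm38.p6 and is printed from the plus strand, opposite to the gene. The match begins 99 bases before one of the gene's annotated starts. The Myog stretch is at chr1:134289909-134289938 on the plus strand, with the match 84 bases before the start. Myog itself, at 174, 185 and 128 in nasal against 116, 113 and 120 in rib, did not pass (log2 0.46, SE 0.15, adjusted p = 0.0570).

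RefSeq promoter windows were searched for 7 of the members. Beside Six2, the Meis core was found before Six5, 105 bases from the start, and before Dach1, 9 bases from the start. The AP-2 core GCCNNNGGC, present upstream in 13.7% of windows, was found before Eya4 alone. The Sox core ACAATG, present in 10.7%, was found in none of the members' windows. Both strands were read for each of these sequences, and no 2 matches within a member's window overlapped.

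Eya1 was the member with the highest nasal intensities relative to its own rib values after Six2. It had 2299, 2366 and 2201 in nasal, against 254, 260 and 262 in rib. The 8.83-fold difference between the geometric means (log2 3.14, SE 0.08, adjusted p = 2.33e-05) put Eya1 at place 6 among genes higher in nasal. Its arrays varied little within either group.

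Eya2 had 359, 278 and 299 in nasal, against 138, 137 and 165 in rib. It was 2.12-fold higher in nasal (log2 1.08, SE 0.13, adjusted p = 0.00150), with nasal replicate 1 above the other nasal arrays. Eya4, a gene linked to hearing and heart function in humans, had 827, 845 and 860 in nasal, against 478, 496 and 509 in rib. It was 1.71-fold higher in nasal (log2 0.77, SE 0.08, adjusted p = 0.000903), with arrays of a group close to each other.

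Eya3 was the exception among the Eya genes. It had 838, 748 and 851 in nasal, against 990, 976 and 1031 in rib, a difference of -0.30 (SE 0.09, adjusted p = 0.0489) just past the threshold. A difference at least as large was common, since 45.6% of all genes had a larger absolute difference. The call was lost in all 6 fits that left out 1 array (adjusted p from 0.0503 to 0.150), and the direction stayed the same in each. Eya3 has 2 further probe sets, named for other transcripts, with differences of -0.25 and -0.23. Neither passed when each probe set was tested by itself (adjusted p = 0.0777 and 0.101).

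Dach1 and Dach2 moved in opposite directions. Dach1 had 189, 165 and 153 in nasal, against 251, 245 and 260 in rib (log2 -0.58, SE 0.10, adjusted p = 0.00681). Its second probe set gave a closely similar difference of -0.57 (adjusted p over probe sets = 0.00901). The nasal arrays spread more widely than the rib arrays but stayed below them.

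Dach2 was dim on every array. It had 93.8, 75.6 and 72.5 in nasal, against 51.3, 56.4 and 59.1 in rib, with both groups far under the median gene intensity of 231. The difference was 0.53 (SE 0.13, adjusted p = 0.0197). Its second probe set had 0.36 and did not pass (adjusted p over probe sets = 0.132). The call was also lost without rib replicate 1 (adjusted p = 0.0753) and without rib replicate 2 (adjusted p = 0.0619).

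**Figure D2:**
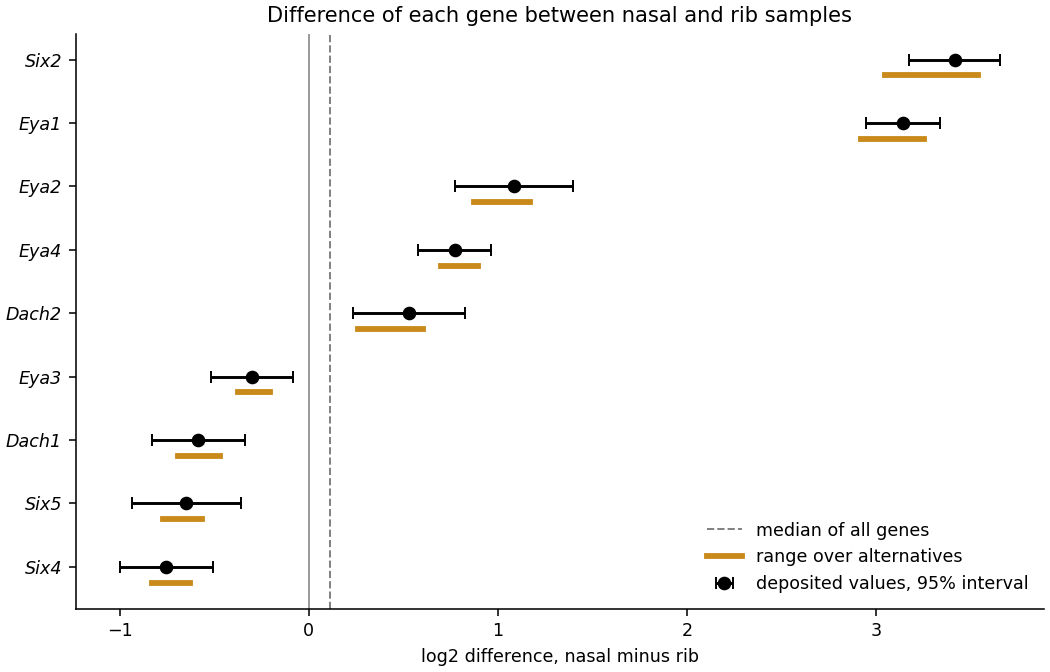
Log2 difference, nasal minus rib, of each gene with its 95% interval from limma (black points and bars) and the range over the alternative settings (orange bars); the dashed line is the median of all 19932 genes, 0.11. Six2 (3.42) and Eya1 (3.14) lie well apart from the other genes, and the orange ranges stay on one side of 0 for every gene.

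By size and direction the members formed an order from Six2 and Eya1, over Eya2, Eya4 and Dach2, to Eya3, Dach1, Six5 and Six4. The 95% interval of Six2 (3.17 to 3.66) overlapped that of Eya1 (2.95 to 3.34), and both lay above that of Eya2 (0.77 to 1.40). The intervals of Eya2, Eya4 and Dach2 overlapped one another, as did those of Eya3, Dach1, Six5 and Six4. Differences between one gene and another were not tested.

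Genes whose pattern over the 6 arrays was most like that of the leading member of each family were found by Pearson correlation of log2 intensities. For Six2 these were Socs2, a suppressor of cytokine signalling (r = 0.9997, log2 difference 1.87), the hexokinase gene Hk1 (r = 0.9997, 0.95) and the protocadherin gene Pcdh7 (r = 0.9995, 1.55). For Eya1 they were Wbp1 (r = 0.9995, 0.52), the cartilage matrix gene Matn1 (r = 0.9993, 2.66) and the laminin chain gene Lama2 (r = 0.9993, 2.91). For Dach1 they included the microRNA gene Mir351 (r = 0.9989, -0.83) and Agtrap (r = 0.9984, -0.57). The 6 points share 2 groups, so a high correlation follows for any gene with a clear difference between them and is given as a description only.

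Dach proteins are related to Ski and Skil, corepressors of TGF-beta signalling, and these differed in opposite directions too. Ski had 1596, 1825 and 1766 in nasal, against 1293, 1356 and 1347 in rib (log2 0.37, SE 0.09, adjusted p = 0.0221). Skil had 935, 1039 and 1048 in nasal, against 1218, 1321 and 1280 in rib (log2 -0.34, SE 0.09, adjusted p = 0.0323). Both are modest differences. The call of Ski was lost in 5 of the 6 fits without 1 array, the exception being nasal replicate 1, and that of Skil in all 6.

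Pax proteins act upstream of Six-family and Eya genes in several organs, and Pax3 also marks neural crest. Of 7 Pax genes, 2 were called as higher in nasal and 0 as higher in rib, so that 28.6% were called, near the share of all genes. Pax3 had 316, 307 and 336 in nasal, against 99.9, 88.2 and 101 in rib (log2 1.73, SE 0.10, adjusted p = 0.000120). Pax9, a gene of facial and axial skeleton, had 275, 225 and 224 in nasal, against 120, 116 and 158 in rib (log2 0.88, SE 0.15, adjusted p = 0.00570). The other 5 did not pass, among them Pax2, a partner of Eya1 in the kidney, with geometric means of 156 in nasal and 176 in rib. After quantile normalization or cyclic loess, 1 Pax gene was called as higher in rib and 2 as higher in nasal.

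Patterning genes around Six2 were read from a list of 13 that mixes Hox and Meis genes and others with markers of the facial mesenchyme. Of these, 6 were higher in nasal, 3 were lower in nasal and 4 did not pass, so 69.2% were called, against 28.5% of all genes. In a separate fit of only the genes above the median level, adjusted over those genes alone, 5841 of 9966 were called. That fit held 9 genes of the list, with 5 higher in nasal and 2 in rib. The median difference of all 13 was 0.33, against 0.11 over all genes. Hoxa2, known in the mouse as a repressor of Six2 in the second pharyngeal arch, had 105, 61.2 and 62.8 in nasal, against 301, 355 and 331 in rib (log2 -2.15, SE 0.21, adjusted p = 0.000696). All nasal arrays were below the rib arrays, with nasal replicate 1 the highest of the nasal ones.

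Meis1 and Meis2, cofactors of Hox proteins, had the largest differences in the other direction from Six2 in that list. Meis1 had 166, 121 and 101 in nasal, against 1398, 1408 and 1258 in rib (log2 -3.42, SE 0.18), and Meis2 stood at 230, 187 and 214 in nasal, against 1560, 1762 and 1797 in rib (log2 -3.02, SE 0.11). Hoxa11 and Hoxd11, whose proteins activate Six2 together with Eya1 and Pax2 in the kidney, did not pass (log2 0.33, SE 0.17, and -0.14, SE 0.15), and both were under the median gene intensity in both groups.

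The genes of that list that were higher in nasal included the AP-2 genes Tfap2a and Tfap2b, the homeobox gene Alx4 of the facial mesenchyme, and Msx1 and Msx2. Tfap2a (log2 3.43, SE 0.10) and Tfap2b (log2 3.05, SE 0.16) had differences near those of Six2 and Eya1. Alx4 had 417, 407 and 433 in nasal, against 132, 134 and 146 in rib (log2 1.61, SE 0.09, adjusted p = 0.000119). Alx1 did not pass, with 1792, 2193 and 2109 in nasal against 1875, 1942 and 1853 in rib.

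**Figure D3:**
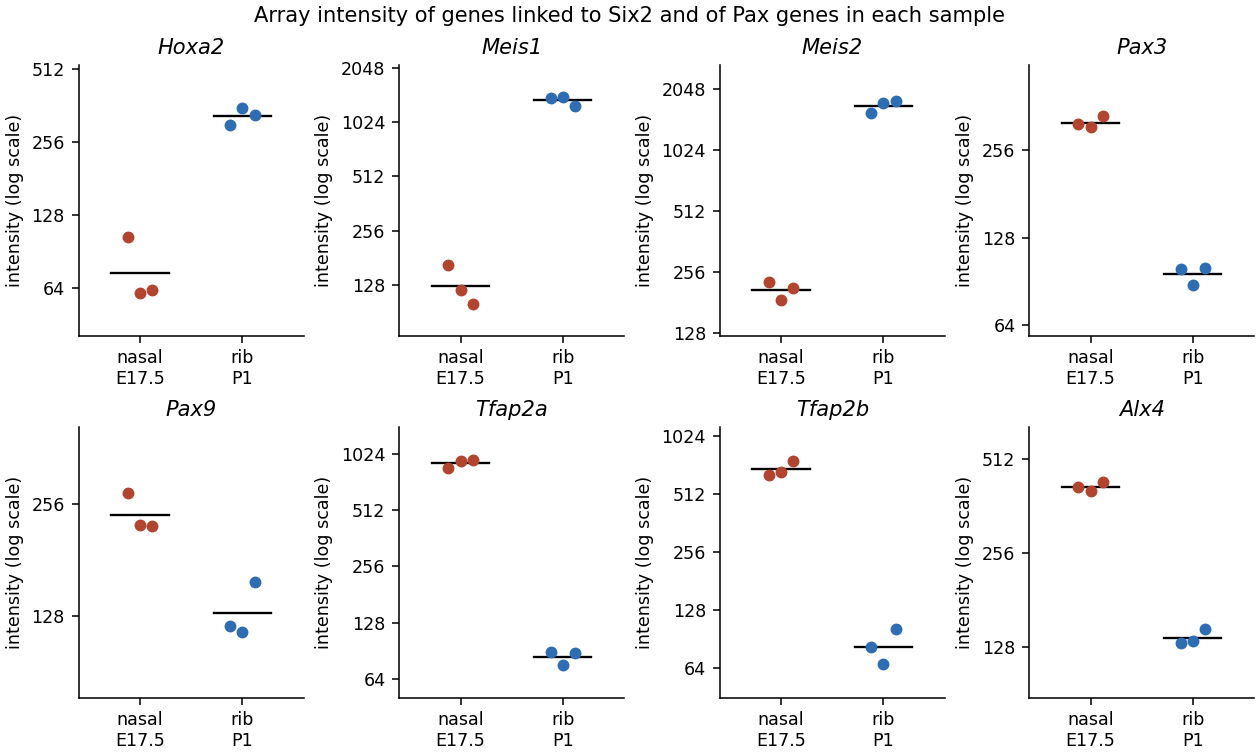
Array intensity (log axis, each panel with its own range) of Hoxa2, Meis1, Meis2, Pax3, Pax9, Tfap2a, Tfap2b and Alx4; each point is 1 array, with nasal left and rib right, and the black line is the geometric mean of 3 arrays. Hoxa2, Meis1 and Meis2 are lower in nasal and the other 5 are higher, without overlap of the groups.

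Cofactors that Six-family, Eya and Dach proteins are known to recruit, or relatives of these, mostly differed by less than 2-fold. Of 12 measured, 2 were higher in nasal and 5 in rib, so 58.3% were called, against 28.5% of all genes. A separate fit of only the genes above the median level, adjusted over those genes alone, called 5841 of 9966. Its share cannot be set directly against the 28.5%, because the fit and the adjustment differ as well as the brightness. That fit held 10 of the 12 cofactor genes, with 2 higher in nasal and 5 in rib. The Groucho-related corepressor gene Tle3 had 1675, 1893 and 1970 in nasal, against 810, 833 and 774 in rib (log2 1.19, SE 0.10, adjusted p = 0.000397). Tle4 was higher as well (log2 0.64, SE 0.09). Sobp, the mouse counterpart of a fly gene whose product binds the Six-family protein Sine oculis, had 1065, 1046 and 1058 in nasal, against 1483, 1535 and 1488 in rib (log2 -0.51, SE 0.08, adjusted p = 0.00405). The histone deacetylase gene Hdac3 (-0.44, SE 0.11), Ncor1 (-0.35, SE 0.09) and the acetyltransferase gene Ep300 (-0.34, SE 0.09) were also lower in nasal. Sobp kept its call in all 16 alternative settings, whereas the other rib calls were fragile. Leaving out any 1 rib array left 1 of the 12 called as higher in rib, and leaving out nasal replicate 2 left 2.

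Genes that have been described as targets of Six-family or Eya proteins in other tissues numbered 17. Of these, 3 were higher in nasal, 2 were lower in nasal and 12 did not pass, so 29.4% were called, close to the share of all genes. Over the 16 alternative settings 2 to 6 were higher in nasal. Gdnf, the ligand that guides kidney budding and a target of Eya1 and Six-family genes there, had 552, 393 and 428 in nasal, against 233, 222 and 184 in rib (log2 1.09, SE 0.16, adjusted p = 0.00281). Ret, which encodes the receptor for Gdnf, moved the other way, with 314, 290 and 257 in nasal against 566, 655 and 678 in rib (log2 -1.14, SE 0.12, adjusted p = 0.000793). Neither gene's arrays overlapped between the groups.

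Wnt4, a signal of the forming nephron and of joints, had 418, 321 and 403 in nasal, against 178, 168 and 191 in rib (log2 1.08, SE 0.13, adjusted p = 0.00123). The ion cotransporter gene Slc12a2 had 1358, 1523 and 1450 in nasal, against 2228, 2265 and 2185 in rib (log2 -0.63, SE 0.09, adjusted p = 0.00252). Ezr, which links membrane and cytoskeleton, differed by 0.41 (SE 0.12, adjusted p = 0.0384) but lost that call in 5 of the 6 fits without 1 array, the exception being nasal replicate 1. The muscle regulators Myod1 (log2 -0.15, SE 0.21), Myf5 (-0.07, SE 0.21) and Myf6 (0.08, SE 0.20), targets of Six-family proteins in muscle, did not pass and were under the median gene intensity in both groups.

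**Figure D4:**
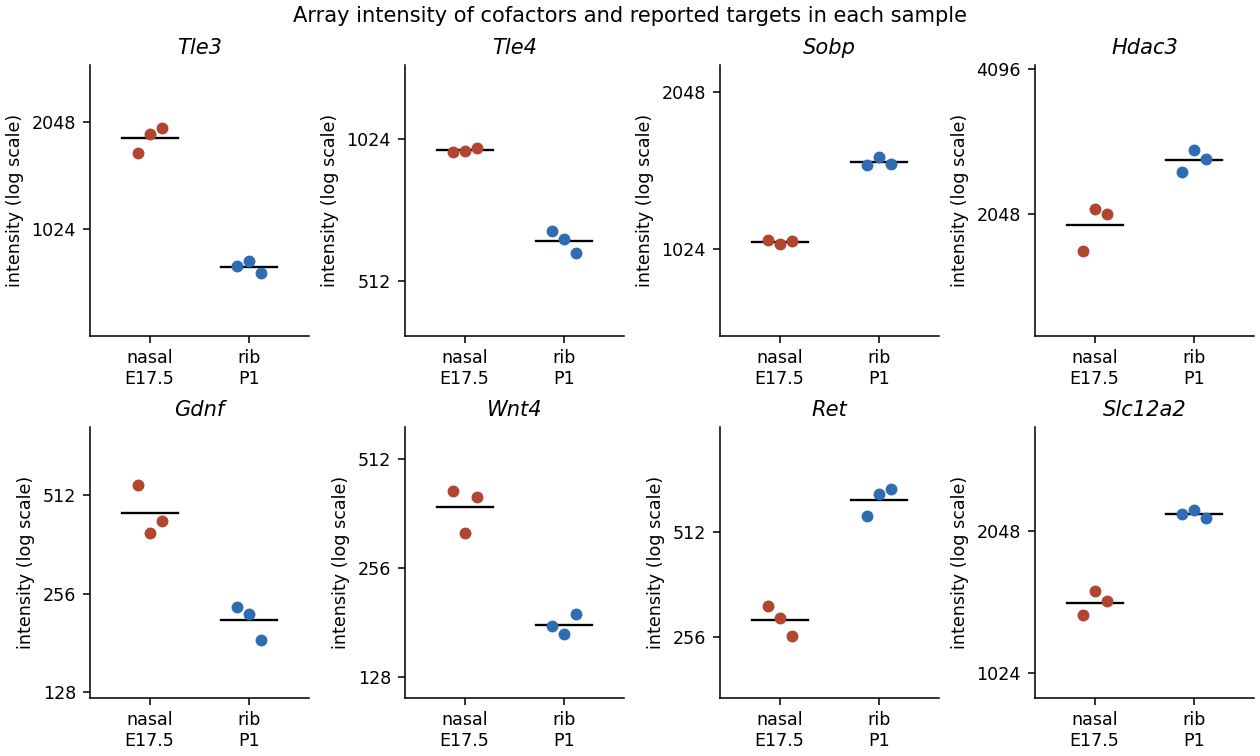
Array intensity (log axis, each panel with its own range) of the cofactor genes Tle3, Tle4, Sobp and Hdac3 and of the reported target genes Gdnf, Wnt4, Ret and Slc12a2; each point is 1 array, with nasal left and rib right, and the black line is the geometric mean of 3 arrays. Tle3, Tle4, Gdnf and Wnt4 are higher in nasal, and Sobp, Hdac3, Ret and Slc12a2 are lower in nasal.

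Chondrocyte markers were bright in both groups, with Col2a1 at geometric means of 13462 in nasal and 16032 in rib and Acan at 14440 and 12641. Sox9 averaged 7548 in the nasal arrays and 9189 in the rib arrays (log2 -0.28, SE 0.09, adjusted p = 0.0491), a call lost in all 6 fits without 1 array. Of 10 such markers, 1 was higher in nasal (Matn1) and 2 were higher in rib (Comp and Sox9), so 30% were called, near the 28.5% of all genes. Over the 16 alternative settings, 1 to 3 were higher in nasal and 1 to 4 in rib, and Col2a1 was called as higher in rib in 6 of them. Their summed intensity ran from 76778 to 79059 in nasal and from 70912 to 76747 in rib, so the groups were barely separate. Within the sums, Matn1 had geometric means of 11590 in nasal and 1833 in rib, and Comp of 2652 and 7483. The part of single markers in that gap was not tested.

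Six-family and Eya genes are also active in muscle, nasal epithelium, sensory placodes and ganglia, so markers of such cells were read beside them. Of 12 skeletal muscle markers, 0 were higher in nasal and 3 in rib, namely Tnnt3 (log2 -1.24, SE 0.13), Myl1 (-1.07, SE 0.29) and Acta1 (-0.58, SE 0.15), so 25% were called, against 28.5% of all genes. The count in rib ran from 1 to 4 over the 16 alternative settings. Myl1 lost the call without nasal replicate 2 or 3 or rib replicate 2 or 3, and Acta1 without replicate 1 or 3 of either group. The summed intensity of all 12 ran from 1779 to 2276 in nasal and from 2385 to 2846 in rib, the same direction as Six4 and Six5. That separation rested on Tnnt3: without it, a choice made after seeing the data, the sums of the other 11 overlapped, at 1507 to 1940 in nasal and 1652 to 2018 in rib. Differences were above 0 for 6 of the 12, and the median was 0.0025. For muscle, 9 of the 12 markers lay under the median gene intensity in both groups. The part of muscle cells in the Six4 and Six5 values was not tested.

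Among 10 markers of respiratory and olfactory epithelium, 2 were higher in nasal, namely Omp (0.76, SE 0.16) and Cdh1 (0.53, SE 0.12), and Epcam was lower in nasal (-0.45, SE 0.09), so 30% were called, near the 28.5% of all genes. Over the 16 alternative settings, 0 to 4 were higher in nasal, with 4 after quantile normalization, median centring or cyclic loess. The summed intensity ran from 2140 to 2994 in nasal and from 2122 to 2412 in rib, so the groups overlapped. Among 9 markers of glia and neurons, 3 were higher in nasal and 0 in rib, namely Sox10 (0.85, SE 0.11), Stmn2 (0.83, SE 0.23) and Snap25 (0.47, SE 0.13). That is 33.3%, against 28.5% of all genes, and the count in nasal ran from 1 to 4 over the alternatives. Stmn2 lost the call without nasal replicate 1 or 3 or rib replicate 1 or 2, and Snap25 without nasal replicate 2 or any 1 rib array. Cdh1 lost it without rib replicate 1 or 2, and Omp without rib replicate 1. The sum for glia and neurons ran from 2367 to 2787 in nasal and from 1924 to 2101 in rib. Its largest part came from S100b, which did not pass (log2 0.30, SE 0.10, adjusted p = 0.0698). Of the 9 glia and neuron markers, 7 lay under the median gene intensity in both groups. No marker is at 0, since the arrays give a signal for every probe set. The part of these cells in the Six2, Eya1 and Eya2 values was not tested.

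The sums of the 2 remaining lists overlapped between the groups. Of 10 perichondrium and fibroblast markers, Prrx1 was higher in nasal (0.67, SE 0.10) and 2 were lower in nasal, Pdgfra (-0.52, SE 0.09) and Col3a1 (-0.44, SE 0.12), so 30% were called. Over the alternatives 1 to 3 were higher in each direction. Their sums ran from 22058 to 22750 in nasal and from 17200 to 23117 in rib. Of 6 endothelial and blood markers, Cdh5 was higher in nasal (1.05, SE 0.22) and the erythroid gene Alas2 was lower in nasal (-1.02, SE 0.21), with sums from 878 to 1378 in nasal and from 1139 to 1271 in rib. That is 33.3%, and 0 to 3 were higher in nasal over the alternatives. For all genes the share called was 28.5%. The call of Col3a1 was lost without nasal replicate 2 or 3 or rib replicate 2 or 3.

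**Figure D5:**
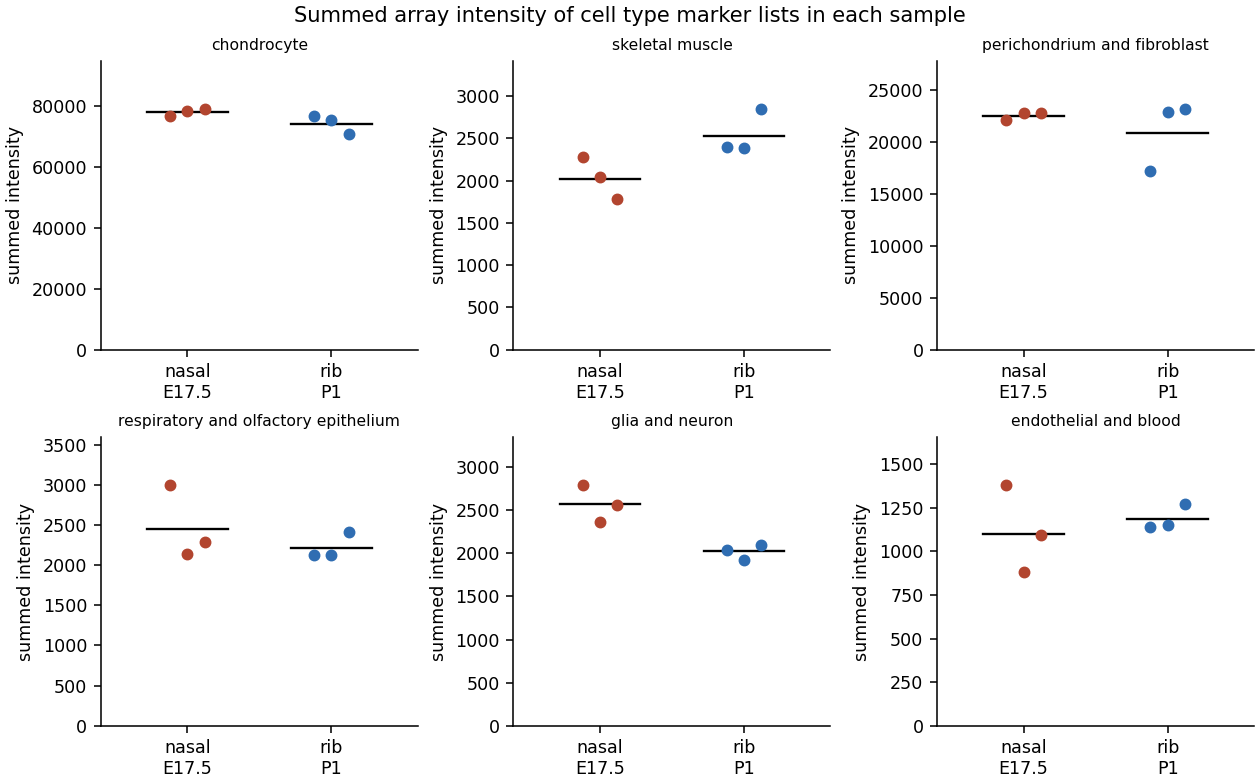
Summed array intensity (linear axis from 0) of 6 lists of cell type markers; each point is 1 array, with nasal left and rib right, and the black line is the geometric mean of 3 arrays. Chondrocyte markers sum to at least 70912 on every array. The muscle sums are lower in nasal, the glia and neuron sums are higher in nasal, and rib replicate 1 has the lowest perichondrium and fibroblast sum.

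Correlations between arrays across all probe sets were 0.987 to 0.993 within a group and 0.957 to 0.968 across groups. Median intensities ran from 216 to 261 in nasal and from 209 to 234 in rib. Precision is limited by the small number of arrays, 3 in each group.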

How the data were processed

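RNA of 6 samples (300 ng each) was labelled for Affymetrix whole-transcript arrays, as the labels' protocols state. A single table was deposited by the authors, made up of intensities for 28451 probe sets, on a linear scale. RMA is named in the submitters' processing notes, while its version, its settings and a genome build are not stated there or in the file. Each array had been scaled to the same trimmed mean of 500 (2% removed at each end), as computed from the deposited intensities, which does not make the distributions equal. No detection calls were used.

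The values were converted to log2 with no offset. Probe set names are RefSeq accessions, and 24935 matched a symbol in a RefSeq table of GRCm38.p6, used for names only. Each of the 19932 genes is represented by its probe set of highest mean. Nasal minus rib was tested with limma 3.58.1 in R 4.3.3 (lmFit and eBayes, no covariate, two-sided) and Benjamini-Hochberg adjustment over all genes. The pipeline was tested on simulated data. An exact permutation test of 3 against 3 arrays gives no p under 0.1, and limma supplies all p-values.

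The 9 members and all gene lists were chosen with earlier results of these data known, so their counts are descriptions and are given beside those of all genes. From each list, up to 4 genes past the threshold per direction were named, by size of difference. Where none passed, the 2 with the highest mean were taken. Sox9, Col2a1 and Acan were always named. Genes named outside this rule (Pax2, Myog, Hoxa11, Hoxd11, Alx1, Msx1, Msx2 and the muscle regulators) were chosen after their values were seen. Postn, Col1a1, Lum and S100b were also named outside it, after their values were seen. Some genes of these lists that the rule would name are not reported here. Promoter letters are from RefSeq windows of GRCm38.p6, which held entries for Six2, Six4, Six5, Eya3, Eya4, Dach1 and Dach2, and not for Eya1 and Eya2. Alternatives covered normalization, offset, filters on dim genes, probe set choice, eBayes settings, a replicate block and each array left out.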

Additional observations from a re-analysis of the deposited data

How the results depend on the processing

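Each member kept its direction in every one of the 16 alternatives (10 other settings and 6 fits without 1 array) in which it was tested. Six2, Six4, Six5, Eya1, Eya2, Eya4 and Dach1 also kept their calls wherever they were tested. Eya3 lost its call with quantile normalization (-0.22, adjusted p = 0.0830), in the fit after cyclic loess (-0.20, adjusted p = 0.107), with the mean of its probe sets, with every probe set tested, with the replicate block and without any 1 array. Dach2 lost it with quantile normalization (0.26, adjusted p = 0.0670), in the fit after cyclic loess (0.27, adjusted p = 0.0583), with the mean of its probe sets, with trend and robust, with the block and without rib replicate 1 or 2. The cause was not tested. The count of called members ran from 7 to 9 wherever all 9 were tested and from 7 to 8 without 1 array. Of the 6 members above the median level, all 6 were called, 3 of them as higher in nasal. In the same fit 5841 of 9966 genes were called. Over all genes, the 5683 calls ran from 3466 (without rib replicate 2) to 5764 (without nasal replicate 1) in the fits without 1 array, and reached 6977 after cyclic loess and 7970 with every probe set tested. Members called as higher in nasal numbered 4 to 5 without 1 array, and those higher in rib numbered 3. The median difference of all genes, 0.11 as deposited, was -0.01 after quantile normalization, 0.00 after cyclic loess and 0.04 after median centring. Acan turned sign after cyclic loess (-0.0068, adjusted p = 0.956).

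Replicate numbers are shared between the groups. Deviations of same-numbered arrays from their group means had correlations of -0.02, 0.22 and -0.28. With means of so few arrays, these values cannot settle whether the numbers pair the samples. With the replicate block, 3903 genes and 7 members were called, and 2 of the 12 cofactor genes as higher in rib, against 5 without it. No detection calls were used, so how far the signals of dim genes such as Dach2, and of Six2 and Eya2 in rib, lie above background was not tested.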
